A study of Mus musculus with 12 samples.

Results

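Red-cell miRNAs were followed in small RNA libraries of the mouse cerebral cortex through the precursors mmu-mir-451a, mmu-mir-451b, mmu-mir-144, mmu-mir-486b and mmu-mir-486a. The precursors were chosen by name, as miRNAs that are abundant in red blood cells and could serve as an index of blood in the tissue, and all 5 were found among the 589 precursors of the deposited table. Whether they measure the blood content of these cortices was not tested, and the sources used here mention no rinse of the vessels between the death of the mice, by cervical dislocation, and the freezing of the dissected tissue in liquid nitrogen.

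The study compared female mice of the C57BL/6J background that were 7 weeks old at the start and then drank for 5 months. WT mice (TLR4+/+) received water, WT + EtOH mice received water with 10% (v/v) ethanol, TLR4-KO mice (TLR4−/−, lacking the innate immune receptor Toll-like receptor 4) received water, and TLR4-KO + EtOH mice received the same ethanol solution. All groups ate a solid diet without restriction. Each of the 4 groups gave 3 libraries, 12 in all, and each library held RNA pooled from 3 mice, or 9 mice for every group. An SD within a group is hence a spread of pools, not of single mice. Small RNA libraries hold no Tlr4 mRNA to check the genotype by.

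In developing red cells the miR-144 and miR-451 hairpins are cut from a shared primary transcript that is switched on by the factor GATA1, and miR-451 is unusual in that its short hairpin is cut by the Argonaute protein itself and not by Dicer. miR-486 lies within the gene of ankyrin-1, a protein of the red-cell membrane skeleton, and is also made in skeletal and heart muscle. Mature red cells have no nucleus but keep miRNAs, and blood in the vessels of the brain therefore adds them to RNA from whole cortex.

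The deposited values are a score without a unit on a log-like scale, with a top value of 135 in every library and many levels that recur between libraries. Differences carry the unit of the score and cannot be read as folds. Whether a length enters the scale is not stated, so that the order of precursors is an order of deposited values and not of molecules. The deposited file holds no read counts. The study reports numbers of reads, but how they enter the score is not stated, so that no counting error can be given for a value. A value of 0 is given only as listed at 0. A precursor was called where limma, fitted to all 589 precursors and 12 libraries, gave a Benjamini-Hochberg adjusted p under 0.05. Of the 589, 265 were listed at 0 in all 12 libraries and could not be called or differ between groups. Each share of all precursors given below includes them, and would be larger over the 324 precursors above 0 in any library. With 3 libraries a side, the smallest p of an exact two-sided permutation test is 0.1. The calls depend on limma's pooling of the spread over the 4 groups, with little taken from other precursors (prior degrees of freedom 0.308, total 8.31).

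The libraries did not hold the same number of precursors. Values above 0 were found for 270, 260 and 260 precursors in replicates 1, 2 and 3 of WT, 270, 233 and 229 in WT + EtOH, 262, 229 and 216 in TLR4-KO, and 262, 247 and 236 in TLR4-KO + EtOH. The 3 WT libraries and replicate 1 of each other group thus had 260 to 270, and the remaining 6 libraries had 216 to 247. No WT library was among the lower 6, so that results against WT are also given within and without these libraries. The labels name no batch.

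mmu-mir-451a carries miR-451a, which in red-cell precursors represses the mRNA of the adaptor protein Ywhaz and protects the cells from oxidative damage. Its deposited value in replicates 1, 2 and 3 was 50.2, 50.2 and 46.3 in WT, 31.7, 35.3 and 36.0 in WT + EtOH, 26.3, 33.8 and 33.8 in TLR4-KO, and 24.5, 27.7 and 31.9 in TLR4-KO + EtOH. All 3 WT libraries lay above all 9 others, while the ranges of the 3 remaining groups overlapped each other. The group means were 48.9 ± 2.28 in WT and 34.3 ± 2.33 in WT + EtOH, and 31.3 ± 4.32 in TLR4-KO beside 28.1 ± 3.70 in TLR4-KO + EtOH (SD, n = 3). In this order of levels only the step from WT to WT + EtOH was larger than the SDs of the groups on either side of it. Among the 589 precursors of a library, mmu-mir-451a stood at ranks 90 to 102 in WT and 135 to 150 in WT + EtOH, and at 140 to 167 in TLR4-KO beside 148 to 172 in TLR4-KO + EtOH, counted from the highest value. In bulk tissue, fewer red cells and less of the miRNA per red cell cannot be told apart. Differently normalised values of the same libraries accompany the study, and they order the libraries differently for mmu-mir-451a. There, replicate 1 of each of the 3 groups other than WT is not below WT, so that the distance of WT from all 9 other libraries, and the calls that rest on it, hold for the deposited values only. The step that separates the 2 sets is not stated, and no value of the other set is printed or tested here.

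mmu-mir-451b, the antisense partner of mmu-mir-451a, had the same deposited value as mmu-mir-451a in 12 of 12 libraries. The pair is therefore 1 measurement that is listed under 2 names, and reads of the 2 strands cannot be told apart in it. In GENCODE M21 on GRCm38 both lie at chr11:78073170-78073241, mmu-mir-451a on the plus strand and mmu-mir-451b on the minus strand, and they overlap no other gene. The hairpins, taken from RefSeq (build GRCm38.p6) as were all sequences here, are shown because each is the exact reverse complement of the other over 72 bases. The mature miRNA is in capitals, at chr11:78073186-78073207 (plus strand) for miR-451a and chr11:78073219-78073239 (minus strand) for miR-451b.
mmu-mir-451a hairpin: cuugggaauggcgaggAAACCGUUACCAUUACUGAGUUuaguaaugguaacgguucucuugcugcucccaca
mmu-mir-451b hairpin: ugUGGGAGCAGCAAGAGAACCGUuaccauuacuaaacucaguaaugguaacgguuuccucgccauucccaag
Since the hairpin is nearly its own complement, 16 of the 22 bases of miR-451a occur as an unbroken stretch in the mmu-mir-451b hairpin. The mature miRNAs themselves share no stretch longer than 6 bases.

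**Figure D1:**
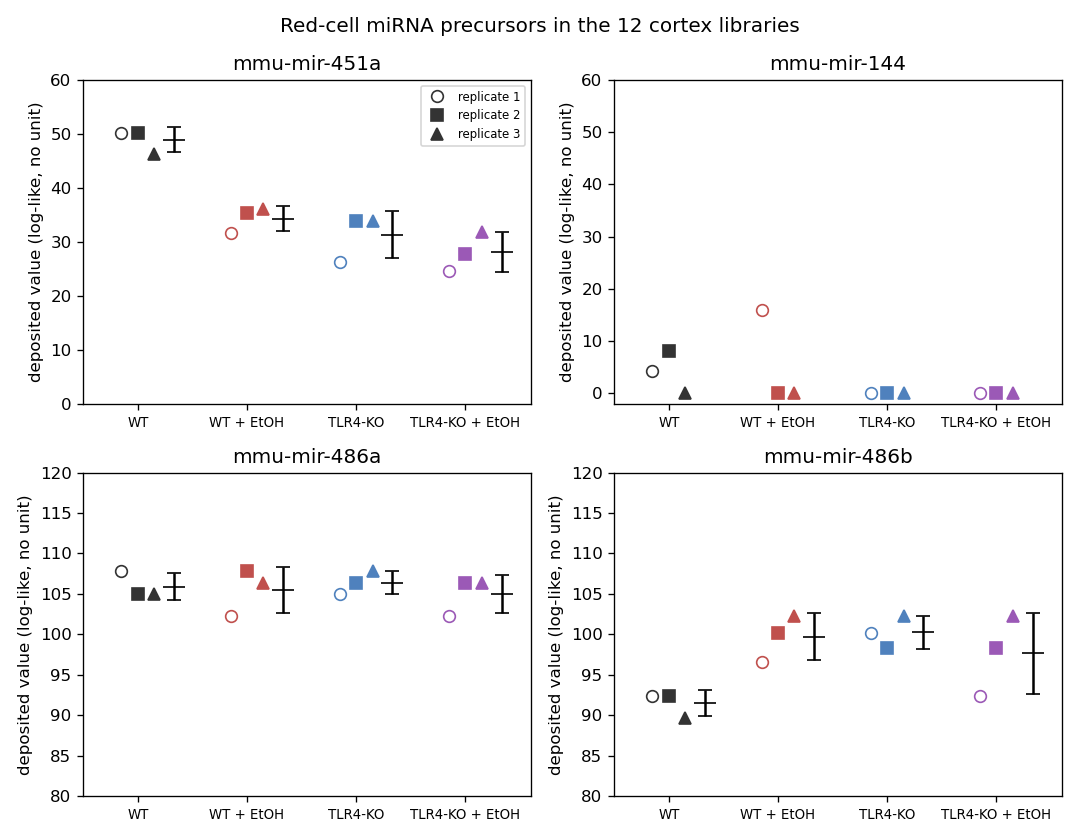
Deposited values (log-like score without a unit, vertical axes) of mmu-mir-451a, mmu-mir-144, mmu-mir-486a and mmu-mir-486b in the 4 groups (horizontal axes). Each point is 1 library, with the symbol giving the replicate number, and the line with bars beside the points is the mean ± SD of 3 libraries, left out for mmu-mir-144; the lower panels start at 80. The WT libraries of mmu-mir-451a lie at 46.3 to 50.2, above the 24.5 to 36.0 of the other 9, while those of mmu-mir-486a lie within the range of the other groups or on its upper edge.

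In WT + EtOH against WT, the comparison that asks for the effect of ethanol when TLR4 is present, mmu-mir-451a fell by 14.6 (SE 2.63, 95% interval −20.6 to −8.58, limma adjusted p = 0.0346). Of the 5 red-cell precursors 2 were called, mmu-mir-451a and its copy mmu-mir-451b, both lower, where 1.7% of all 589 precursors were called in either direction and 0.679% were called lower. The groups of this pair did not overlap, as was the case in the same direction for 9.51% of all precursors. This call was the least secure of those against WT. It was lost in limma fits without WT replicate 1 (adjusted p = 0.125), WT replicate 2 (0.121), WT replicate 3 (0.0634), WT + EtOH replicate 1 (0.0756), WT + EtOH replicate 2 (0.0925), WT + EtOH replicate 3 (0.0761), TLR4-KO replicate 2 (0.0503) or TLR4-KO + EtOH replicate 2 (0.0782), and with only the 6 libraries of the groups compared (0.0567). The difference itself lay between −15.9 and −13.3 over the 12 fits that each leave out a library.

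In TLR4-KO against WT, which asks for the effect of the receptor's loss without ethanol, mmu-mir-451a fell by 17.6 (95% interval −23.6 to −11.6, limma adjusted p = 0.00948). Again 2 of the 5 precursors were called, the same pair, where 2.55% of all precursors were called and 1.02% were called lower. The groups of the pair did not overlap, nor did those of 8.49% of all precursors in this direction. With only the libraries of these groups in the fit the adjusted p was 0.0745, and it stayed under 0.05 when any library was left out (0.0120 to 0.0450).

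TLR4-KO + EtOH against WT gave the largest difference of mmu-mir-451a in the 5 comparisons of groups, in which it fell by 20.9 (95% interval −26.9 to −14.9, limma adjusted p = 0.00364). The same 2 of 5 precursors were called, beside 1.87% of all precursors and 0.849% called lower, and their groups did not overlap, as for 8.49% of all precursors. These 3 comparisons share the WT libraries and are not independent of each other.

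In the 2 comparisons tested between groups other than WT no red-cell precursor was called. From TLR4-KO to TLR4-KO + EtOH, where 0.34% of all precursors were called, the difference of mmu-mir-451a was −3.28 (95% interval −9.30 to 2.74, limma adjusted p = 1). At an unadjusted limma p under 0.05 there were 0 of the 5, beside 6.96% of all precursors. From WT + EtOH to TLR4-KO + EtOH, with 0.509% called, it was −6.27 (95% interval −12.3 to −0.255, limma unadjusted p = 0.0429, adjusted p = 1), and mmu-mir-451a and its copy were the 2 of 5 with an unadjusted p under 0.05, beside 4.58% of all precursors.

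The effect of ethanol on mmu-mir-451a in TLR4-KO, less its effect in WT, was 11.3 (95% interval 2.81 to 19.8, limma unadjusted p = 0.0152, adjusted p = 0.263). Of the 5 precursors 0 were called for this difference of the ethanol effects, where 1.19% of all precursors were called. An unadjusted limma p under 0.05 was found for 3 of the 5 (mmu-mir-451a, its copy and mmu-mir-486b) and for 12.6% of all precursors. With the number of precursors above 0 in each library as a covariate the difference of mmu-mir-451a was 16.1 (adjusted p = 0.0109), and with the split of libraries at 260 as a term it was 15.0 (adjusted p = 0.0122), so that the call for this contrast depends on how the number of detected precursors is treated.

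The level of mmu-mir-451a was set beside the number of detected precursors because WT libraries had many. Within the 6 libraries with 260 or more precursors above 0, the deposited value of mmu-mir-451a was 46.3 to 50.2 in WT and 24.5 to 31.7 in replicate 1 of the other groups. The 6 other libraries outside WT lay at 27.7 to 36.0. Replicate 1 of the other groups is where the differently normalised values of the study do not lie below WT, so that whether the 3 libraries resemble WT in mmu-mir-451a depends on the values used. In the fit of those 6 libraries, where each group other than WT has 1 library that is assumed to vary like WT, the difference from WT was −17.3 for WT + EtOH and −22.6 for TLR4-KO, with −24.4 for TLR4-KO + EtOH, and none was called (limma adjusted p = 0.0969, 0.0633 and 0.0715). Without replicate 1 of the groups other than WT the differences were −13.3, −15.1 and −19.1, and all were called (limma adjusted p = 0.0132, 0.00767 and 0.00469).

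**Figure D2:**
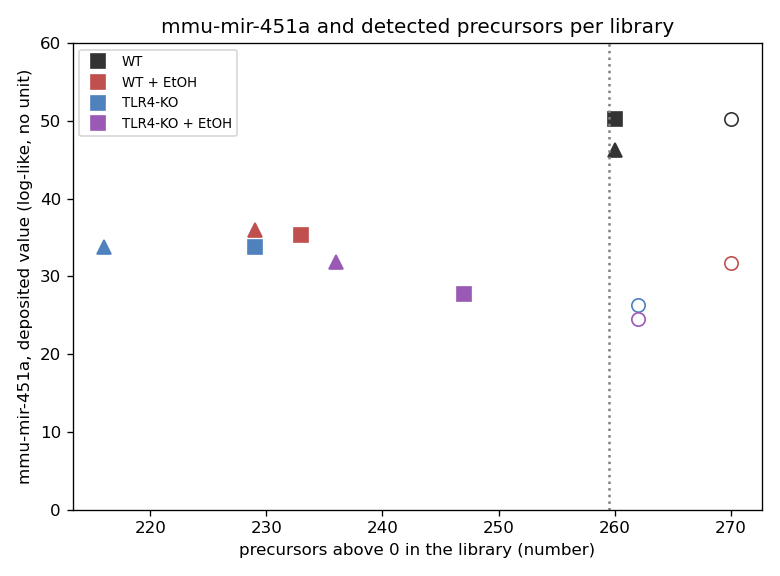
Deposited value of mmu-mir-451a (log-like score without a unit, vertical axis) against the number of precursors above 0 in the library (horizontal axis). Each point is 1 of the 12 libraries, coloured by group, with open circles for replicate 1, squares for replicate 2 and triangles for replicate 3, and the dotted line divides the libraries with 260 or more precursors from the others. The WT libraries, at 46.3 to 50.2, stand above replicate 1 of the other groups, at 24.5 to 31.7, on the same side of the line in the deposited values, but not in the differently normalised values of the study.

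WT libraries were not set apart by mmu-mir-451a alone. The 3 WT libraries lay above all 9 others for 23 of the 589 precursors (3.9%) and below them for 17 (2.89%). These counts hold for the deposited values only, since in the differently normalised values of the study WT does not stand apart for mmu-mir-451a, nor for mmu-mir-16-2, mmu-mir-143, mmu-mir-145a or mmu-mir-150, which are described below. Among these 23, mmu-mir-451a and its copy had the largest difference between the WT mean and the mean of the 9 others, 17.7. The gap between the lowest WT library and the highest of the others was 10.3, next after the 12.1 of mmu-mir-96, which is listed at 0 outside WT. Over the 12 libraries mmu-mir-451a had an SD of 8.79, against a median of 4.51 for the 190 precursors above 0 in all libraries.

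mmu-mir-144 is the neighbour of mmu-mir-451a, and its miR-144-3p represses the mRNA of Nfe2l2, a regulator of the defence against oxidants. Its deposited value was 4.20 and 8.17 in replicates 1 and 2 of WT and 16.0 in replicate 1 of WT + EtOH, and it was listed at 0 in the other 9 libraries. The 3 libraries with a value all belong to the 6 with 260 or more detected precursors, and the groups overlap at 0. It was not called in any comparison (limma adjusted p = 1 in each), and no fold can be given against groups listed at 0. Since only 3 of 12 libraries hold a value, the data cannot show whether mmu-mir-144 followed mmu-mir-451a. The WT + EtOH library with the highest value of mmu-mir-144 had the lowest mmu-mir-451a of its group.

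In the genome mmu-mir-144 lies at chr11:78073005-78073070 on the plus strand of GRCm38, with 99 bases between its end and the start of mmu-mir-451a, and it overlaps no other gene. The RefSeq table held 3 of the 5 precursors, with 4 mature miRNAs; mmu-mir-486a and mmu-mir-486b were not matched. The mature sequences of the cluster are shown 5′ to 3′ to compare their seeds (bases 2 to 8, in capitals), the part that pairs with a target mRNA.
mmu-miR-451a: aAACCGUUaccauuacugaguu
mmu-miR-451b: uGGGAGCAgcaagagaaccgu
mmu-miR-144-5p: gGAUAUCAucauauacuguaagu
mmu-miR-144-3p: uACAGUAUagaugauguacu
The 4 seeds are all distinct, so that no mature miRNA of the cluster shares a seed with another, although mmu-mir-144 and mmu-mir-451a are neighbours.

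mmu-mir-486a carries miR-486, which is made in red-cell precursors and in muscle. Its deposited value in replicates 1, 2 and 3 was 108, 105 and 105 in WT, 102, 108 and 106 in WT + EtOH, 105, 106 and 108 in TLR4-KO, and 102, 106 and 106 in TLR4-KO + EtOH. All groups overlapped, and no group stood apart. With a mean of 106 it was at rank 9 of 589, and its SD over the 12 libraries, 1.89, ranked 4 from the smallest among the 190 precursors present throughout. No difference between groups exceeded 1.33 in size, and limma gave an adjusted p of 1 for each contrast. Larger differences appeared when the number of detected precursors was taken into account. Within the 6 libraries with 260 or more they were −3.56 for both ethanol groups against WT (limma adjusted p = 0.506 and 0.571), and with the split as a term they were −2.82 for WT + EtOH (limma unadjusted p = 0.0349, adjusted p = 0.223) and −3.29 for TLR4-KO + EtOH (limma unadjusted p = 0.0187, adjusted p = 0.155). For WT + EtOH against WT the 95% interval was −4.31 to 3.54, and for TLR4-KO + EtOH against WT it was −4.77 to 3.08. These intervals do not reach the differences of mmu-mir-451a in the same comparisons (−14.6 and −20.9), although a difference on this scale need not mean the same change in reads for a precursor near the top and one of middle rank.

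mmu-mir-486b is the antisense partner of mmu-mir-486a. Its deposited value in replicates 1, 2 and 3 was 92.4, 92.4 and 89.7 in WT, 96.6, 100.2 and 102 in WT + EtOH, 100.2, 98.3 and 102 in TLR4-KO, and 92.4, 98.3 and 102 in TLR4-KO + EtOH. WT was below every library of WT + EtOH and TLR4-KO, whereas replicate 1 of TLR4-KO + EtOH equalled the highest WT value. The difference from WT was 8.19 for WT + EtOH (95% interval 2.40 to 14.0, limma adjusted p = 0.196), and 7.3% of all precursors had groups that did not overlap in this direction. It was 8.76 for TLR4-KO (95% interval 2.97 to 14.6, limma adjusted p = 0.139), where that share was 7.13%. For TLR4-KO + EtOH it was 6.18 (95% interval 0.390 to 12, limma adjusted p = 0.414). None passed the threshold, and the sign was opposite to that of mmu-mir-451a in each. Within the 6 libraries with 260 or more precursors above 0 the differences were 5.08, 8.66 and 0.914 (limma adjusted p = 0.320, 0.133 and 1), and without replicate 1 of the groups other than WT they were 9.74, 8.82 and 8.82 (limma adjusted p = 0.0550, 0.0785 and 0.0850), so that the size for TLR4-KO + EtOH depends on the libraries used. The difference of the ethanol effects was −10.8 (95% interval −19.0 to −2.58, limma unadjusted p = 0.0161, adjusted p = 0.266).

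The miR-486 precursors were not copies of each other in the table. mmu-mir-486a exceeded mmu-mir-486b by 12.5 to 15.4 in the WT libraries and by 4.07 to 9.91 in the other 9, so that the ranges of this distance do not overlap. In GENCODE M21 on GRCm38, mmu-mir-486a lies at chr8:23142555-23142682 on the plus strand, and mmu-mir-486b, listed there under the name Mir3107, at chr8:23142573-23142662 on the minus strand within it. Both lie in an intron of Ank1 (plus strand) and overlap the antisense gene Gm15816 (minus strand). Whether the counting used the strand is not stated, so that reads of the 2 strands may not have been told apart. The study reports that most reads mapped to multiple places in the genome. How such reads were shared between precursors is not stated, and their part in the distance between mmu-mir-486a and mmu-mir-486b was not tested.

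Set side by side, the members did not move as a group. In the 3 comparisons with WT, mmu-mir-451a and its copy were lower, mmu-mir-486a differed by less than its spread, and the difference of mmu-mir-486b was above 0 without passing the test. With the copy left out, the median difference of the 3 members above 0 in all libraries was −0.383 for WT + EtOH and 0.486 for TLR4-KO, with −0.847 for TLR4-KO + EtOH, against WT, beside 0.306, 0.555 and 1.04 for all 190 such precursors. The distance between mmu-mir-486a and mmu-mir-451a was 54.7 to 58.6 in the WT libraries and 70.4 to 78.7 in the other 9.

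No r of the values over all 12 libraries is printed for mmu-mir-451a with another member, because WT lies apart from the rest. The planned one with mmu-mir-486a was weaker than those below and did not pass. Of the 3 pairs planned, those with mmu-mir-144 rest on 3 values above 0 and are not printed, although they count in the adjustment. Over the 9 libraries outside WT, mmu-mir-451a and mmu-mir-486a had a Pearson r of 0.621 (exact permutation p = 0.0762) and a Spearman rho of 0.723 (exact permutation p = 0.0291), with adjusted p = 0.187 and 0.139 over 5 relations, the 3 planned pairs over 12 libraries included. Without the 2 libraries farthest from the median of mmu-mir-451a, r was 0.315 (n = 7). These libraries were replicate 1 of TLR4-KO and of TLR4-KO + EtOH, where the differently normalised values of mmu-mir-451a do not lie below WT. Of the 2, only TLR4-KO + EtOH replicate 1 lowered r when left out alone. Leaving out TLR4-KO replicate 1 alone gave r = 0.635 (exact permutation p = 0.0667). Leaving out WT + EtOH replicate 1 gave r = 0.808 (exact permutation p = 0.00714), leaving out TLR4-KO + EtOH replicate 2 gave 0.709 (exact permutation p = 0.0470), and leaving out TLR4-KO + EtOH replicate 1 gave 0.398 (exact permutation p = 0.343). With the group means removed in all 12 libraries, a choice made after the values were seen, r was 0.731 (exact permutation within groups, p = 0.0370, adjusted p = 0.185) and rho 0.597 (p = 0.0556, adjusted p = 0.139), and r was 0.737 without the 2 libraries farthest from their group mean in mmu-mir-451a (n = 10). Neither the r outside WT nor that with the group means removed passed after adjustment.

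The precursors whose values followed mmu-mir-451a most closely over the 12 libraries, among 186 candidates above 0 in all of them, were those of the neural miRNA miR-9 (mmu-mir-9-3, mmu-mir-9-2 and mmu-mir-9-1), followed by mmu-mir-26b and mmu-mir-28a. All 5 were also above the other libraries in WT, which raises that r, and it is not printed. Over the 9 libraries outside WT, Pearson's r was 0.833, 0.753, 0.647, 0.512 and 0.633 in the same order. For mmu-mir-486a the highest r were 0.859 with mmu-mir-30a, 0.811 with mmu-mir-541 and 0.758 with mmu-mir-99a (rho 0.685, 0.808 and 0.773). None of these closest precursors was one of the other miRNAs listed here as abundant in red cells. For mmu-mir-451a the order was set over all 12 libraries, with WT apart, so that it cannot show whether those miRNAs followed mmu-mir-451a.

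miRNAs that red cells hold in abundance but share with other cells were examined as a list, of which 9 of 10 precursors were in the table, 8 were above 0 in some library and 6 in all. Its most abundant member, mmu-mir-16-2, was at 80.6, 80.9 and 80.6 in WT, 73.3, 74.0 and 77.0 in WT + EtOH, 69.7, 76.0 and 75.8 in TLR4-KO, and 72.1, 74.5 and 78.8 in TLR4-KO + EtOH. As for mmu-mir-451a, WT lay above all 9 others, but by a smaller distance. The difference from WT was −5.96, −6.90 and −5.59 (limma adjusted p = 0.251, 0.169 and 0.348 with WT + EtOH, then TLR4-KO, then TLR4-KO + EtOH), and 0 of the 9 passed in any comparison. At an unadjusted limma p under 0.05 they were 3, 4 and 3 against WT, beside 12.6%, 12.2% and 10.7% of all precursors in the same comparisons. Those were mmu-mir-16-1, mmu-mir-16-2 and mmu-mir-93 for WT + EtOH, all lower, and mmu-mir-16-1, mmu-mir-16-2 and mmu-mir-25 for both TLR4-KO groups, all lower. In TLR4-KO the fourth was mmu-mir-92a-1, which was higher (9.31, limma adjusted p = 0.287). mmu-mir-185 was above WT in every TLR4-KO library (7.87, limma adjusted p = 0.466), as were 7.13% of all precursors. The list thus did not move in 1 direction. The median difference of the 6 members above 0 in all libraries was −5.70, −6.17 and −2.30. mmu-mir-363 was listed at 0 in all 12 libraries and mmu-mir-92a-1 in 10. The values of mmu-mir-16-1 and mmu-mir-16-2 nearly coincided, with means of 74.8 for both in WT + EtOH, and 73.4 and 73.8 in TLR4-KO. The counts of this list, its median and its sums thus hold near-copies.

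The summed deposited value of these 9 precursors was 330.4, 319 and 326 in replicates 1, 2 and 3 of WT, 300.1, 292 and 299 in WT + EtOH, 310.1, 303 and 328 in TLR4-KO, and 309, 303 and 304 in TLR4-KO + EtOH. TLR4-KO replicate 3 thus lay within the WT range, where its mmu-mir-451a did not. A sum of log-like scores, here and for the lists below, is not an amount of RNA. Precursors listed at 0 in only some libraries also shift it, such as mmu-mir-92a-1 (0 in WT, up to 17.0 in TLR4-KO). For the red-cell precursors, with the value of mmu-mir-451a counted once, the sum was 255, 256 and 240.9 in WT, 247, 243 and 245 in WT + EtOH, 231, 239 and 244 in TLR4-KO, and 219, 232 and 240.6 in TLR4-KO + EtOH. WT replicate 3 lay below every WT + EtOH library and below TLR4-KO replicate 3. Only with the value counted under both names was every WT library (287 to 306) above every other library (244 to 281).

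Other cells of blood were covered by a list of 6 leukocyte precursors. Its most abundant member, mmu-mir-150 of lymphocytes, was at 69.7, 68.7 and 69.7 in WT, 74.1, 76.8 and 79.4 in WT + EtOH, 81.1, 78.0 and 76.8 in TLR4-KO, and 74.8, 76.0 and 76.0 in TLR4-KO + EtOH. It was thus lowest where mmu-mir-451a was highest, and was called higher than WT in WT + EtOH (7.41, limma adjusted p = 0.0444) and TLR4-KO (9.28, limma adjusted p = 0.00958), the only call among the 6 in each, where 1.7% and 2.55% of all precursors were called. These calls are given for the deposited values only, since WT does not stand apart for mmu-mir-150 in the differently normalised values of the study. In TLR4-KO + EtOH it was not called (6.27, limma adjusted p = 0.0813), but it was with only the groups compared (0.0105), without replicate 1 of the groups other than WT (0.0137), and without WT + EtOH replicate 1 (0.0488) or 3 (0.0436). The calls for WT + EtOH and TLR4-KO were lost when libraries were centred on the brain list (5.56 and 8.88, limma adjusted p = 0.190 and 0.0683). They were also lost with only the groups compared (0.143 and 0.0664) and with ranks within a library (0.253 and 0.110). That of WT + EtOH was lost as well with a block for the replicate number (0.0723), robust eBayes (0.0504) and the split at 260 (0.0577). Most fits without a library lost it too. At an unadjusted limma p under 0.05 the list had 2, 1 and 1 against WT, beside 12.6%, 12.2% and 10.7% of all precursors. The second for WT + EtOH was mmu-mir-342, above WT in every library (10.9, limma adjusted p = 0.244), as were 7.3% of all precursors. It overlapped WT in both TLR4-KO groups. Not all of the list moved this way. mmu-mir-142a of blood cells was at 44.2, 45.9 and 42.7 in WT, 55.5, 28.3 and 40.5 in WT + EtOH, 28.2, 30.7 and 38.5 in TLR4-KO, and 29.9, 29.2 and 38.2 in TLR4-KO + EtOH. It was lower than WT in every library of both TLR4-KO groups without being called (−11.8 in each, limma adjusted p = 0.532 and 0.629). In each of these comparisons 8.49% of all precursors had groups that did not overlap in this direction. Among the defining markers, mmu-mir-223 of myeloid cells was listed at 0 in all 12 libraries, mmu-mir-155 in 10 and mmu-mir-142b in 11. The list summed to 141, 136 and 129.9 in WT, 163, 143 and 147 in WT + EtOH, 131, 152 and 143 in TLR4-KO, and 131, 129.7 and 143 in TLR4-KO + EtOH, with the highest value in WT + EtOH replicate 1.

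Vessel-wall precursors (5 listed, 4 above 0 in all libraries) gave 0 calls in each comparison, with 3, 2 and 2 at an unadjusted limma p under 0.05 against WT, where 12.6%, 12.2% and 10.7% of all precursors were. These were mmu-mir-143, lower, and mmu-mir-145a, higher, in each comparison, with mmu-mir-126a, lower, for WT + EtOH. Their most abundant member, mmu-mir-143 of smooth muscle, was at 84.0 ± 0.987 in WT and 77.6 ± 1.45 in WT + EtOH, and 79.5 ± 2.38 in TLR4-KO beside 79.8 ± 1.91 in TLR4-KO + EtOH (SD, n = 3), above all 9 others in WT as mmu-mir-451a was. mmu-mir-145a, also of smooth muscle, went the other way. It lay below all 9 others in WT, with differences from WT of 8.09, 6.91 and 7.33 (limma adjusted p = 0.151, 0.192 and 0.205). The list summed to 249, 257 and 261 in WT, 240.4, 248 and 249 in WT + EtOH, 239, 252 and 257 in TLR4-KO, and 243, 249.8 and 256 in TLR4-KO + EtOH. By this sum every WT library lay above every WT + EtOH library, but by less than 1, and the other groups overlapped WT.

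The labelled tissue was checked by 13 precursors of neurons and brain, of which 12 were above 0 in all libraries and mmu-mir-137 in 8. Their most abundant member, mmu-mir-138-1, was at 90.1 ± 2.75 in WT and 91.9 ± 2.07 in WT + EtOH, and 89.2 ± 1.36 in TLR4-KO beside 91.5 ± 1.42 in TLR4-KO + EtOH (SD, n = 3). Not all of the list was high. Over the 12 libraries mmu-mir-124-1, mmu-mir-124-2 and mmu-mir-124-3 had means of 34.2, 33.0 and 41.8, at ranks 143, 147 and 115 of 589. In WT their means of 33.3, 31.9 and 38.7 lay below the 48.9 of mmu-mir-451a, in an order of deposited values and not of molecules. None of the 13 was called, with 4 at an unadjusted limma p under 0.05 in each comparison with WT, beside 12.6%, 12.2% and 10.7% of all precursors. The 4 were the same each time, mmu-mir-9-1, mmu-mir-9-2 and mmu-mir-9-3, lower, and mmu-mir-128-1, higher (9.29, 8.24 and 8.27, limma adjusted p = 0.0563, 0.0676 and 0.0813). The miR-9 precursors had nearly the same values, with means in WT of 93.9, 93.5 and 93.9, so that this count holds near-copies. The list summed to 793, 805 and 802 in WT, 831, 814 and 808 in WT + EtOH, 783, 826 and 817 in TLR4-KO, and 816, 825 and 798 in TLR4-KO + EtOH, where WT lay below WT + EtOH and overlapped both TLR4-KO groups. With each library centred on the mean of the 12 precursors present throughout, mmu-mir-451a differed from WT by −16.5, −18.0 and −21.2 (limma adjusted p = 0.0226, 0.00820 and 0.00411). The part of any of these cell types in the values of mmu-mir-451a was not tested.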

How the data were processed

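Small RNA of mouse cortex was measured in 12 libraries, 3 per group, from single reads of 50 cycles. Per the labels and the study's methods, the authors used FastQC 0.11.6, Cutadapt, Bowtie2 2.2.5 and TopHat with the build GRCm38, and normalised counts by trimmed means for edgeR. The deposited values are a score, not counts: the top value is equal in all libraries, many levels recur between libraries although the numbers above 0 differ, and many precursors are at 0. The step that made this scale is not stated. The study's count model could not be used on them, and limma 3.58.1 (R 4.3.3; eBayes at its defaults after lmFit and contrasts.fit) took its place, with 1 mean per group, all 12 libraries, no covariate, two-sided tests and Benjamini-Hochberg adjustment over 589 precursors. Prior and total degrees of freedom were 0.308 and 8.31. The test was tried on simulated data before use. The deposited file gives no depth per library, and the numbers of reads that the study reports were not used.

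The members and lists were chosen with earlier results of these data known. Named beside the members were the listed precursors called in a comparison, otherwise the most abundant of each list, and the 5 and 3 precursors with the highest r with mmu-mir-451a and mmu-mir-486a. mmu-mir-96, the mmu-mir-124 precursors, mmu-mir-142a, mmu-mir-145a, mmu-mir-185, mmu-mir-342 and the precursors named for an unadjusted p were named after their values were seen. Exact tests and correlations used scipy 1.17.1 (Python 3.11.15, numpy 2.4.6, pandas 2.3.3), figures matplotlib 3.10.9, and positions GENCODE M21.

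Libraries of TLR4-KO and TLR4-KO + EtOH with the same replicate number deviated together from their group means over 190 precursors (r from 0.101 to 0.153), so that the numbers may pair these libraries; the labels name no shared batch. Alternatives were quantile normalisation, centring on miR-181a and miR-181b or on the brain list, a filter (above 0 in at least 3 libraries, 285 precursors), a fit of the compared groups alone, a block for the replicate number, copies within 1% merged (578 left), robust or trended eBayes, and each library left out. Chosen after seeing the data were leaving out replicate 1 of the groups other than WT, only the 6 libraries with 260 or more precursors above 0, that split or that number in the model, ranks within a library, and the correlation with group means removed.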

Additional observations from a re-analysis of the deposited data

Results flagged for a closer look

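mmu-mir-150, the leukocyte precursor, was singled out because its libraries with ethanol lay on opposite sides of those without it in the 2 genotypes. In the deposited values, every WT + EtOH library was above every WT library, as for 7.3% of all precursors in that comparison. Every TLR4-KO + EtOH library was below every TLR4-KO library. The share of all precursors with this second separation, or with both, was not counted. The pattern is given for these values only, and in the differently normalised values of the study WT does not stand apart for mmu-mir-150. The effect of ethanol in TLR4-KO less that in WT was −10.4 (SE 2.03, limma unadjusted p = 0.000781, adjusted p = 0.0511), which does not pass the threshold. It was −8.51 (limma adjusted p = 0.237) when centred on the brain list and −11.5 (0.0457) when centred on miR-181a and miR-181b. The contrast was also called with the filter (0.0425), trended eBayes (0.0387), the split at 260 (0.0491) and the number of precursors as a covariate (0.0406). Further calls came without replicate 1 of the groups other than WT (0.0210) and without WT + EtOH replicate 1 (0.0270). It was not called with the replicate block (0.108), so that this call depends on the processing. That the directions are opposite was not tested as such. Within TLR4-KO the difference was −3.01 (limma adjusted p = 0.810). The WT libraries enter both this contrast and the comparisons of mmu-mir-451a with WT.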

How the results depend on the processing

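The differences of mmu-mir-451a from WT kept their sign under every alternative run, from −18.3 to −13.3 for WT + EtOH, −22.6 to −15.1 for TLR4-KO and −24.6 to −19.1 for TLR4-KO + EtOH on the deposited scale. For WT + EtOH the call was lost with only the groups compared (−14.6, limma adjusted p = 0.0567), with only the 6 libraries with 260 or more precursors (−17.3, 0.0969) and in 8 of 12 fits without a library (−15.9 to −13.3). For TLR4-KO it was lost with only the groups compared (−17.6, 0.0745) and the 6 libraries (−22.6, 0.0633), and for TLR4-KO + EtOH with the 6 libraries (−24.4, 0.0715), which leave fewer libraries for the spread. The count of called members then went from 2 to 0, and to 1 with copies merged. For WT + EtOH it was 0 to 2 over the fits without a library. The difference of the ethanol effects of mmu-mir-451a was called with the split at 260 (15.0) or the number of precursors above 0 (16.1) in the model, with 2 members called; the cause was not tested.

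With the replicate number as a block (replicate block), mmu-mir-451a kept its calls against WT (limma adjusted p = 0.0374, 0.0144 and 0.00862) with 2 members called in each, and no other member call changed. Outside the TLR4-KO pair the same-number correlations reached down to −0.109; between WT and each other group not every library correlated best with its own number, and between the ethanol groups every library did. The block moved the number of all precursors called from 15 to 24 for TLR4-KO, from 11 to 19 for TLR4-KO + EtOH and from 7 to 3 for the difference of the ethanol effects.

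Signs changed only for members that were never called. For mmu-mir-144, WT + EtOH minus WT was −0.655 centred on the brain list, −4.13 without replicate 1 of the groups other than WT, −38.5 in ranks and −4.13 to 3.86 without a library; TLR4-KO minus WT was 0.383 with the number of precursors as a covariate; the difference of the ethanol effects was 0.713 (brain list), 4.13 (without those replicates), 32.2 (ranks) and −3.86 to 4.13 (without a library). For mmu-mir-486a, the largest differences from WT were −3.56 for each ethanol group in the 6 libraries; WT + EtOH minus WT was 1.20 without replicate 1 of the other groups and −1.52 to 1.20 without a library. TLR4-KO minus WT was −0.950 in the 6 libraries, −1.95 with the split, −1.93 with the covariate and −0.220 to 1.44 without a library. TLR4-KO + EtOH minus WT was 0.509 without those replicates and −1.52 to 0.509 without a library. TLR4-KO + EtOH minus WT + EtOH was 1.05 centred on the brain list and −2.05 to 0.892 without a library, and TLR4-KO + EtOH minus TLR4-KO −2.05 to 0.0228. The difference of the ethanol effects was 0.964 centred on the brain list, 1.49 with the split, 1.85 with the covariate and −2.54 to 0.406 without a library. For mmu-mir-486b, leaving out a library gave −4.90 to 0.0534 for TLR4-KO + EtOH minus TLR4-KO and −4.33 to 0.630 for TLR4-KO + EtOH minus WT + EtOH. mmu-mir-486b in TLR4-KO + EtOH minus WT kept its sign, from 0.914 in the 6 libraries to 8.82 without replicate 1 of the other groups. Outside WT the r of mmu-mir-451a with mmu-mir-486a was 0.707 centred on miR-181a and miR-181b and 0.398 to 0.808 without a library.

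The number of precursors called in the whole table ranged from 4 to 59 for WT + EtOH, 5 to 63 for TLR4-KO and 5 to 44 for TLR4-KO + EtOH against WT, highest with the number of precursors above 0 as a covariate. Centring on the brain list left 0 of 7 calls higher for WT + EtOH and 0 of 5 for TLR4-KO, where the deposited values gave 6 of 10 and 9 of 15, so that the calls of mmu-mir-150 were lost there (5.56 and 8.88). That of WT + EtOH was also lost with the replicate block (limma adjusted p = 0.0723), robust eBayes (0.0504), the split at 260 (0.0577), ranks (0.253), only the 6 libraries (0.0936) or groups compared (0.143), and in 9 of 12 fits without a library. That of TLR4-KO was also lost with ranks (0.110) and only the groups compared (0.0664), and TLR4-KO + EtOH, not called on the deposited values, was called with only the groups compared (0.0105), without replicate 1 of the groups other than WT (0.0137) and in 2 of 12 fits without a library. Without read counts beside the values, the counting error of low values is unknown.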
